A study of Arabidopsis thaliana with 12 samples.

Results

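The DYW-class pentatricopeptide repeat (PPR) genes of Arabidopsis thaliana encode RNA editing factors of plastids and mitochondria. The set described here was drawn from a list of 60 loci, AT2G29760 (OTP81) among them, and a locus counted as measured where the probe annotation paired it alone with a probe set. By this rule 40 of the 60 were measured, each by a single probe set, among 13333 genes with a probe set of their own and 22746 probe sets in all. Of 16 listed loci known as plastid factors 11 were measured, of 14 known as mitochondrial factors 5, and of 30 loci to which no organelle was assigned here 24. The other 20 loci, which include OTP82, ECB2, DYW1, CRR2, MEF7, MEF8, MEF10, MEF11, MEF22, REME1, REME2, SLO1 and DOT4, were not analysed here.

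A PPR protein binds organelle RNA through a tandem array of short helical repeats, and the order of the repeats sets which bases are recognised. Proteins of the DYW class end in a domain named after its last amino acids, which resembles cytidine deaminases and carries out the conversion of cytidine to uridine in the bound transcript. Many of the factors serve 1 or a few editing sites, and many of the plastid sites lie in transcripts of the NADH dehydrogenase-like complex, the photosystems and the plastid RNA polymerase. The proteins are made in the cytosol from nuclear genes, so the arrays measured the messages of the editing factors and not editing itself. OTP81, OTP84, OTP85, OTP86, CRR22, CRR28 and LPA66 are symbols in the supplied gene table, while ELI1, CREF3, CREF7, YS1, OTP90 and the MEF names are the usual names of their loci, given as background.

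Whole germinants of the ecotype Columbia (Col-0), 12 days old, had been raised from seed on glass fibre discs wetted with 2 mL of liquid, 50 seeds to a dish. A group on titania particles (TiO2, 500 mg per L) had 0.1 mM KCl as its control, and a group on ceria particles (CeO2, 500 mg per L) had sterilized Millipore water as its control. The labels do not say which liquid carried the particles, so a difference between TiO2 and KCl may also hold that of KCl itself, and the 2 cannot be told apart. An effect of a particle below means its difference from that control. Each of the 4 groups had 3 Affymetrix arrays, and no group carried a mutation or a transgene. The KCl and TiO2 arrays are called biological replicates in the labels, and the water and CeO2 arrays only replicates. The spread among the water and CeO2 arrays may therefore be technical. The fit behind the p-values estimated the spread of each probe set over all 4 groups together. Technical spread would thus enter the p-values of every comparison in this fit, that of TiO2 with KCl included. A fit of the KCl and TiO2 arrays alone is given with the results. All levels and differences are on the log2 scale. In whole germinants, fewer cells of a type and less RNA per cell cannot be told apart.

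The KCl and TiO2 arrays stood apart from the water and CeO2 arrays along the first principal component, which held 68.1% of the variance, and the median of all probe sets was 5.69 to 5.74 in the former and 5.88 to 5.92 in the latter. Levels are therefore compared only between a particle and its own control. Within each set 1 array lay apart from its group on this component: KCl replicate 3 at 24.6, against 35.6 and 37.0 for the other KCl arrays, and CeO2 replicate 3 at −28.6, against −38.7 and −35.5. Counts without these arrays are given with the results. A difference was called where the Benjamini-Hochberg adjusted p of limma, taken over all probe sets, was under 0.05.

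The DYW messages were dim. The median member had a mean level of 4.21 over the 12 arrays, against 5.82 for all probe sets, and 37 of the 40 members lay below that median. The brightest were CRR28 at 6.32, CREF3 at 6.19 and LPA66 at 6.01, all of them plastid factors. The dimmest were AT3G15930 at 3.18, AT3G13770 at 3.35 and AT5G06540 at 3.36, where the lowest values on the arrays were 2.30 to 2.51. The plastid factors had a median level of 5.41, the mitochondrial factors of 4.21 and the other members of 4.05. These are probe set signals that are not scaled for how strongly each probe binds, so the order describes signal and not the number of messages.

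**Figure D1:**
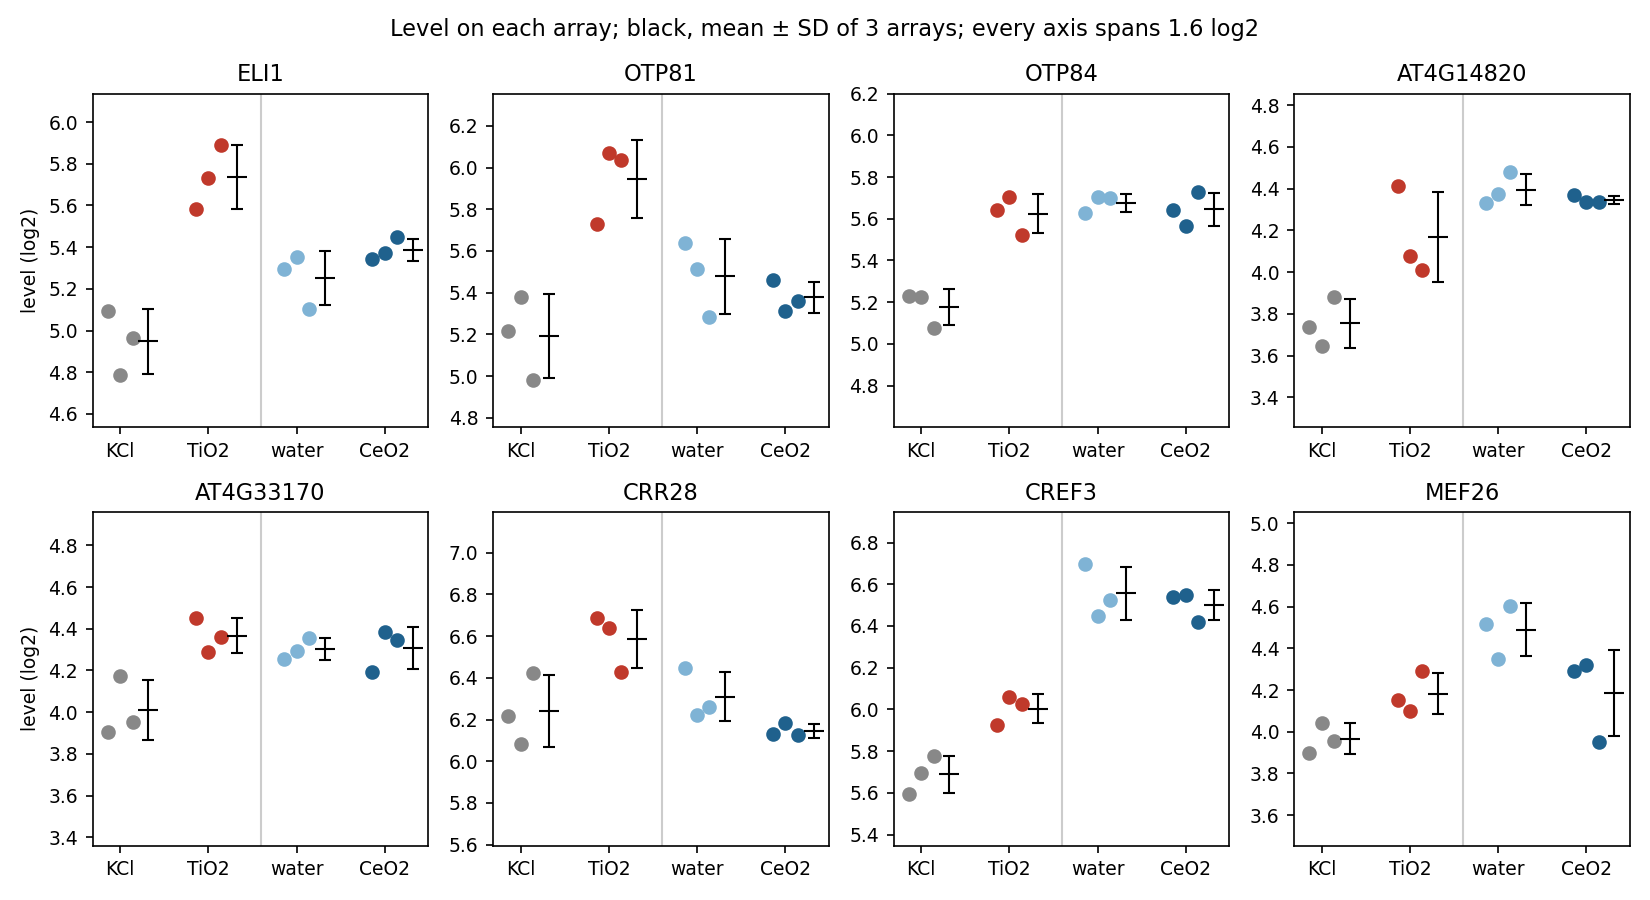
Level of the called members and of MEF26 on each array (log2, vertical axis) by group, with a point for each array and black bars for the mean ± SD of the 3 arrays; every axis spans the same length of scale. For ELI1, OTP81 and OTP84 the TiO2 arrays all lie above the KCl arrays, and for these genes the CeO2 and water arrays overlap.

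In TiO2 germinants 7 of the 40 measured members rose against KCl, 17.5% of them, and 0 fell. Over all probe sets 4.72% rose and 5.86% fell in the same comparison. The difference was positive for 33 members (82.5%, against 54.8% of all probe sets), with a median of 0.13 on the log2 scale against 0.02 for all probe sets. Differences ranged from −0.14 to 0.79. At an unadjusted p under 0.05 the counts were 11 higher and 0 lower, where 11.9% of all probe sets were higher and 11.1% lower. In 12 members every TiO2 array lay above every KCl array, against 13.1% of all probe sets, and in 0 members every TiO2 array lay below, against 11.3%.

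The plastid factors held 5 of the 7. ELI1 (AT4G37380), which serves an editing site in the plastid ndhB transcript, measured 5.09, 4.79 and 4.97 on the KCl arrays and 5.58, 5.73 and 5.89 on the TiO2 arrays. The groups did not overlap, and ELI1 rose by 0.79 ± 0.11 (log2, SE, n = 3 arrays a group), a 1.73-fold change with an adjusted p of 0.000145. OTP81 (AT2G29760), also called QED1, is needed at plastid sites that include one in the rps12 intron. It measured 5.22, 5.38 and 4.98 in KCl and 5.73, 6.07 and 6.03 in TiO2, again without overlap. OTP81 rose 1.68-fold (log2 0.75 ± 0.12, adjusted p = 0.000763).

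OTP84 (AT3G57430) edits sites in ndhB, ndhF and psbZ. Its values were 5.23, 5.22 and 5.07 in KCl and 5.64, 5.71 and 5.52 in TiO2, and it rose 1.36-fold (log2 0.45 ± 0.09, adjusted p = 0.00283). All 3 TiO2 arrays lay above all 3 KCl arrays. ELI1, OTP81 and OTP84 were past the threshold under each of the 12 alternative settings and left-out arrays tried for this comparison, with adjusted p-values up to 0.00452, 0.00996 and 0.0236.

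CREF3 (AT3G14330), which edits the photosystem II transcript psbE, measured 5.60, 5.69 and 5.78 in KCl and 5.92, 6.06 and 6.03 in TiO2. It rose 1.24-fold (log2 0.31 ± 0.09, adjusted p = 0.0368) and the groups did not overlap. CRR28 (AT1G59720), which edits sites in ndhB and ndhD, measured 6.22, 6.08 and 6.43 in KCl and 6.69, 6.64 and 6.43 in TiO2. It rose 1.27-fold (log2 0.34 ± 0.10, adjusted p = 0.0461), although KCl replicate 3 and TiO2 replicate 3 lay at nearly the same level. CREF3 kept its call in 6 of the 12 alternatives and CRR28 in 4 of 12.

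All 11 measured plastid factors had a positive difference in TiO2, with a median of 0.29, and the remaining 6 did not pass the threshold. CREF7 (AT5G66520), another ndhB factor, came nearest, with 3.69, 3.61 and 3.83 in KCl, 3.82, 3.99 and 4.18 in TiO2, and a difference of 0.29 (adjusted p = 0.0944). CRR22, which edits ndhB, ndhD and rpoB, measured 5.50, 5.31 and 5.14 in KCl and 5.73, 5.63 and 5.23 in TiO2. Its groups overlapped, and the difference was 0.22 (adjusted p = 0.372). LPA66, the factor for psbF, measured 5.49, 5.40 and 5.42 in KCl and 5.42, 5.60 and 5.80 in TiO2, a difference of 0.17 (adjusted p = 0.389). OTP86, the factor for rps14, YS1, a factor for rpoB, and OTP85, a factor for ndhD, had differences of 0.16, 0.10 and 0.03 at mean levels below 4.

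None of the 5 measured mitochondrial factors passed the threshold in TiO2, and their median difference was 0.16. MEF14, the factor for a site in matR, measured 5.10, 4.94 and 4.51 in KCl and 5.35, 5.08 and 4.79 in TiO2, so the groups overlapped (difference 0.22, adjusted p = 0.455). MEF26, which edits cox3 and nad4, measured 3.90, 4.04 and 3.96 in KCl and 4.15, 4.10 and 4.29 in TiO2. Its groups did not overlap, and the difference was 0.22 (adjusted p = 0.253). MEF35 had a difference of 0.16, and MEF13 and OTP90 of −0.03 each. The difference between plastid and mitochondrial factors was not tested.

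Of the 24 members without an assigned organelle 2 rose in TiO2, and both were dim. AT4G14820 measured 3.74, 3.64 and 3.88 in KCl and 4.41, 4.08 and 4.01 in TiO2, a 1.33-fold rise (log2 0.41 ± 0.11, adjusted p = 0.0184). AT4G33170 measured 3.90, 4.18 and 3.95 in KCl and 4.45, 4.29 and 4.36 in TiO2, a 1.28-fold rise (log2 0.36 ± 0.09, adjusted p = 0.0228). Neither gene had overlapping groups. AT4G14820 was past the threshold in 7 of 11 alternatives and AT4G33170 in 7 of 12.

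The other 22 of these members were not called, with a median difference over all 24 of 0.08. AT1G20230 had the next positive difference, 0.29 (adjusted p = 0.18), with 5.22, 5.09 and 5.31 in KCl and 5.36, 5.28 and 5.83 in TiO2. The groups overlapped, and TiO2 replicate 3 lay well above the rest. The lowest differences of the set were −0.14 for AT1G09410 (adjusted p = 0.559), −0.12 for AT3G13770 (0.482) and −0.06 for AT3G02010 (0.802), and the last became 0.02 without TiO2 replicate 1.

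**Figure D2:**
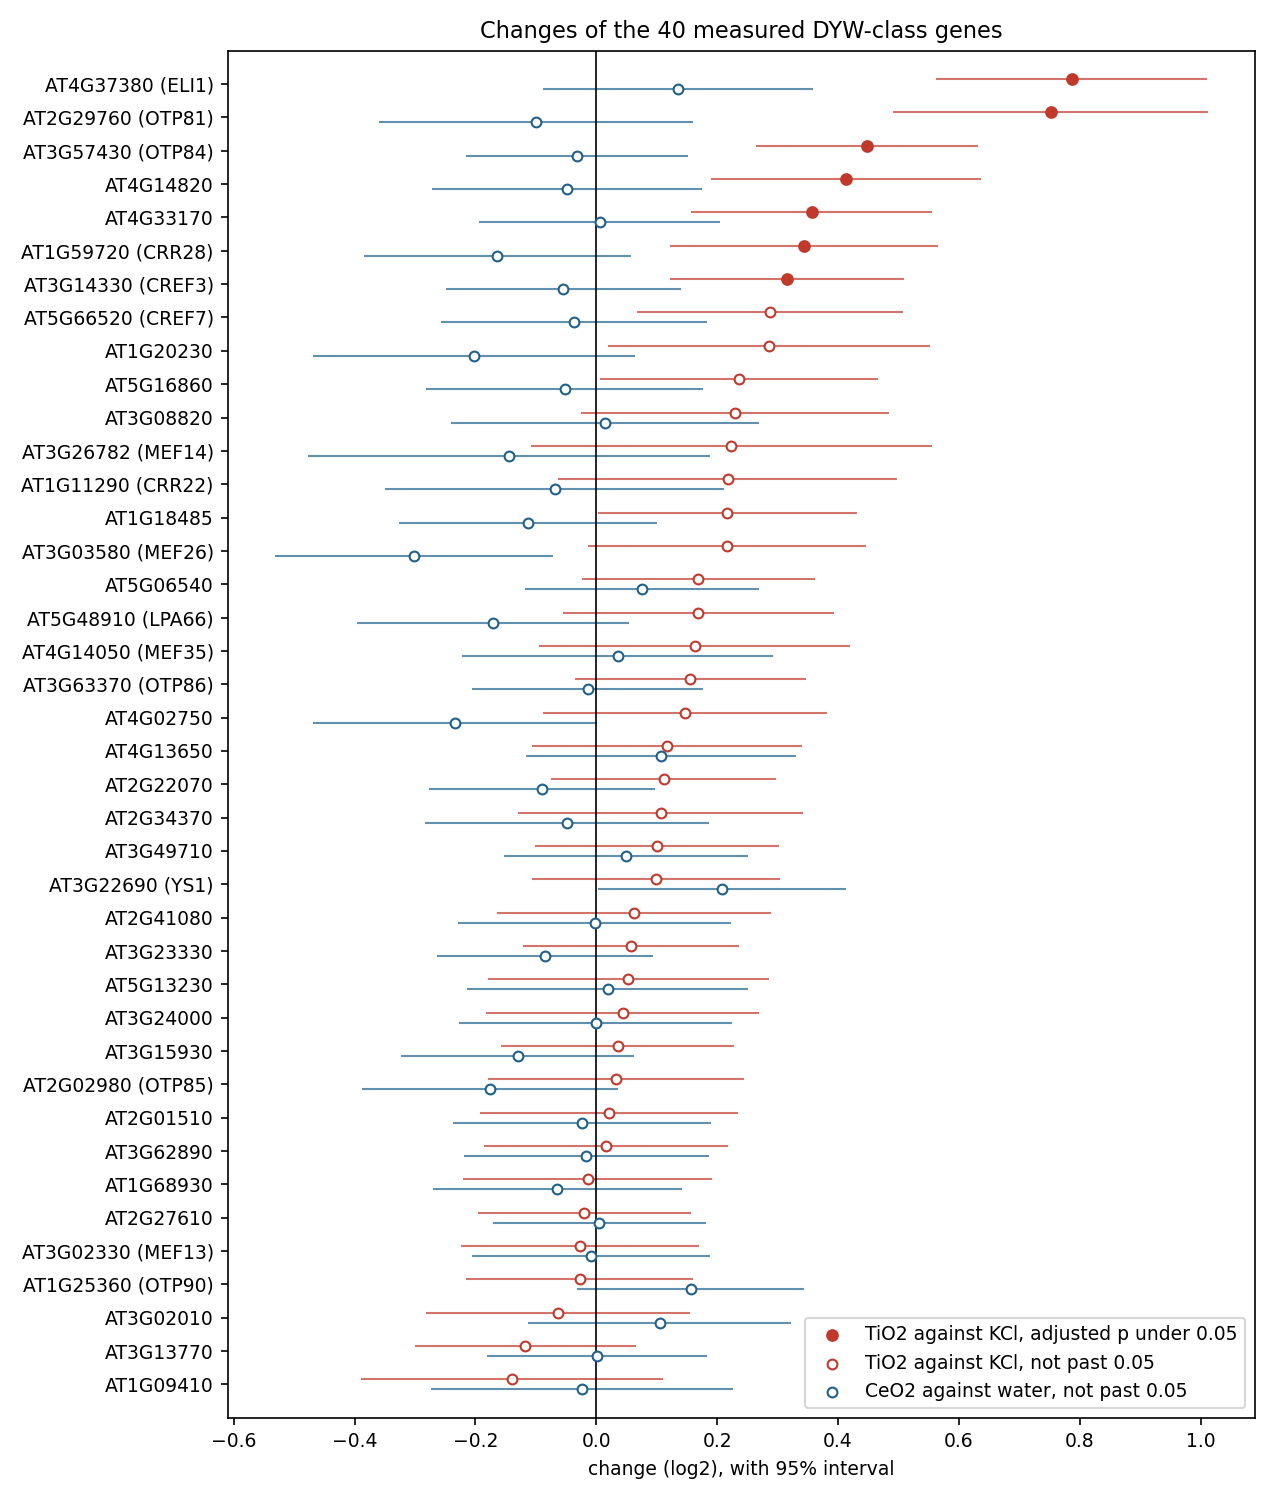
Difference of each of the 40 measured members from its control (log2, horizontal axis) in TiO2 against KCl and in CeO2 against water, with bars for the 95% confidence interval of limma. The TiO2 differences reach 0.79 and 7 of them are called, while the CeO2 differences lie between −0.30 and 0.21 and none is called.

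The number of called members changed with the arrays that entered the fit. It was 6 without KCl replicate 3, all of them among the 7. It was 5 without any 1 of the TiO2 arrays, and without TiO2 replicate 1 only 4 of the 5 were among the 7, the other being CREF7. Without KCl replicate 1 it was 3 and without KCl replicate 2 it was 4, and it was 3 where only the 6 KCl and TiO2 arrays entered the fit. In each of these fits ELI1, OTP81 and OTP84 were called.

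The called members were mostly among the brighter ones. Of 9 members with a mean level of at least 5, a split chosen after the values were seen, 5 rose in TiO2 and all 9 had a positive difference, with a median of 0.31 against 0.01 for all probe sets of that level. Among all probe sets with a mean of at least 5, 6.75% rose. Of the 31 members with a mean under 5, 2 rose (6.45%), against 1.7% of all probe sets of that level. Their median difference was 0.10, against 0.03 for all probe sets of that level. A positive difference was seen in 77.4% of them, against 59.5% of those probe sets. Of 17 members with a mean under 4, 0 were called, and 1 was higher at an unadjusted p under 0.05. The share of all probe sets under 4 was not computed, and with 1.7% risen under 5 a count of 0 says little about these members. Level and organelle went together, since 7 of the 9 brighter members were plastid factors, among them all 5 that rose.

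**Figure D3:**
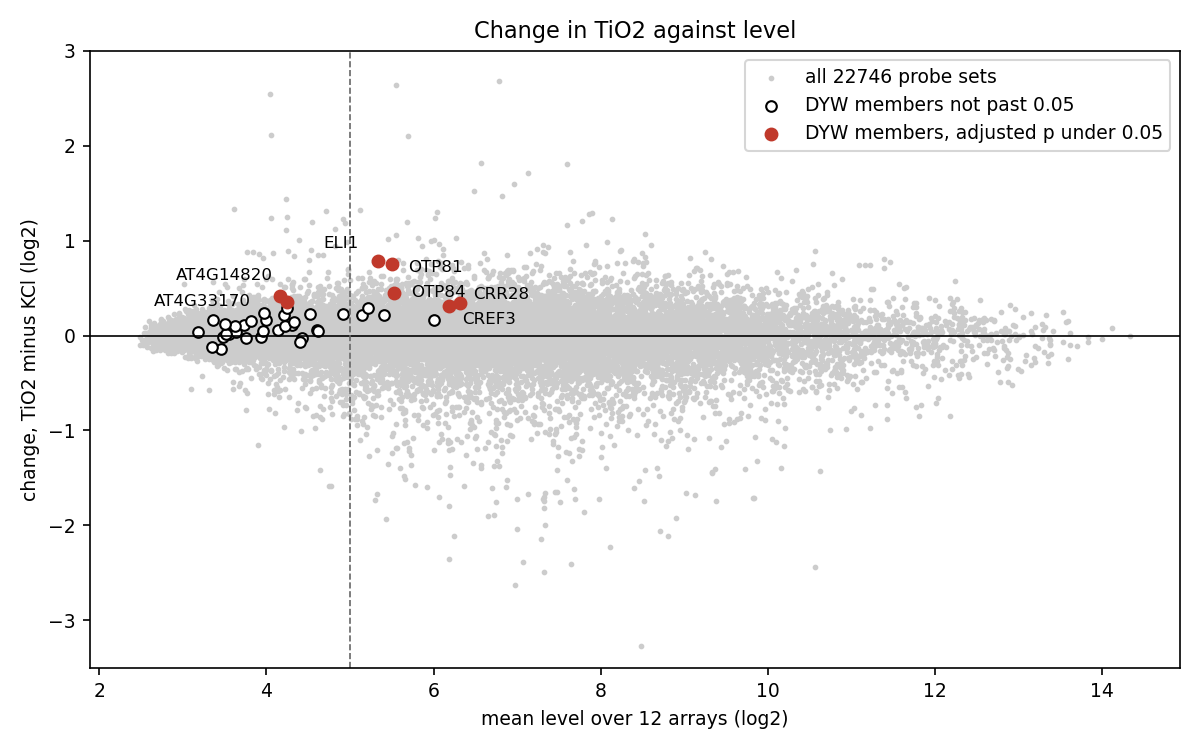
Difference between TiO2 and KCl (log2, vertical axis) against the mean level over the 12 arrays (log2, horizontal axis) for all 22746 probe sets (grey) and the 40 members (circles, filled where called). The members lie at the dim end, the broken line marks the level of 5, and 5 of the 7 called members lie to its right.

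The median over the 40 members was 4.05, 4.05 and 3.95 on the KCl arrays and 4.17, 4.12 and 4.18 on the TiO2 arrays, without overlap. Over the 9 brighter members it was 5.25, 5.38 and 5.14 in KCl and 5.64, 5.71 and 5.83 in TiO2. On the same arrays the median of all probe sets lay between 5.72 and 5.74 in KCl and between 5.69 and 5.74 in TiO2.

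In CeO2 germinants 0 of the 40 members rose and 0 fell against water, where 1.26% of all probe sets rose and 1.16% fell. At an unadjusted p under 0.05 the limma counts were 1 higher and 1 lower, where 4.88% of all probe sets were higher and 4.92% lower. The lowest adjusted p was 0.258. The median difference was −0.03, against −0.01 for all probe sets, and 13 members had a positive difference (32.5%, against 48.4%). Every CeO2 array lay above every water array in 1 member (OTP90), against 8.26% of all probe sets, and below in 4 (MEF26, CRR28, AT3G15930 and AT1G18485), against 8.54%. The count of called members was 0 in all 12 alternatives, and so also without CeO2 replicate 3. Across the arrays the median over the members was 4.26, 4.32 and 4.53 in water and 4.24, 4.33 and 4.26 in CeO2, which overlap.

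The genes that rose in TiO2 had small differences in CeO2. ELI1 measured 5.30, 5.35 and 5.10 in water and 5.34, 5.37 and 5.45 in CeO2, a difference of 0.14 with a 95% confidence interval from −0.09 to 0.36 (adjusted p = 0.813). OTP81 measured 5.64, 5.51 and 5.28 in water and 5.46, 5.31 and 5.36 in CeO2, a difference of −0.10 with an interval from −0.36 to 0.16 (adjusted p = 0.922). Both genes had overlapping groups, and neither interval reached the size of the TiO2 change. OTP84 measured 5.63, 5.70 and 5.70 in water and 5.64, 5.57 and 5.73 in CeO2, a difference of −0.03. CREF3, AT4G14820 and AT4G33170 had differences of −0.05, −0.05 and 0.01.

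The furthest from 0 in CeO2 was MEF26, with 4.51, 4.35 and 4.60 in water and 4.29, 4.32 and 3.95 in CeO2. The groups did not overlap, CeO2 replicate 3 was the lowest, and the difference was −0.30 ± 0.11 (adjusted p = 0.258). AT4G02750 followed at −0.23 (adjusted p = 0.515) and AT1G20230 at −0.20 (0.707). CRR28 measured 6.45, 6.22 and 6.26 in water and 6.13, 6.19 and 6.12 in CeO2, a difference of −0.16 (adjusted p = 0.724). On the positive side YS1, the rpoB factor, had 3.73, 3.74 and 3.69 in water and 3.72, 4.00 and 4.06 in CeO2, a difference of 0.21 ± 0.10 (adjusted p = 0.5) with overlapping groups, ahead of OTP90 at 0.16 (0.65) and ELI1.

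The effects of the particles were then compared directly, as the CeO2 effect minus the TiO2 effect. The difference was below 0 and past the threshold for 5 members and above 0 and past it for 0, against 3.42% and 4.64% of all probe sets. It was −0.85 ± 0.17 for OTP81 (adjusted p = 0.00507), −0.65 ± 0.15 for ELI1 (0.0113) and −0.48 ± 0.12 for OTP84 (0.022). CRR28 at −0.51 ± 0.15 (adjusted p = 0.0452) and MEF26 at −0.52 ± 0.15 (0.0486) were called although neither gene had a called CeO2 effect, and MEF26 had no called TiO2 effect either. AT4G14820 at −0.46 (adjusted p = 0.0724), CREF3 at −0.37 (0.101) and AT4G33170 at −0.35 (0.137) rose in TiO2, but for these a difference between the particles was not detected.

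The median of this difference over the 40 members was −0.17, against −0.03 for all probe sets. OTP81 and ELI1 were past the threshold in all 17 alternatives tried for this comparison, OTP84 in 13 of 17, MEF26 in 5 of 16 and CRR28 in 3 of 17. The count of called members was 2 without TiO2 replicate 2 or water replicate 3, and it was 5 without KCl replicate 3 or TiO2 replicate 3. In both fits with a count of 5, AT4G14820 was called and MEF26 was not, so 4 were shared with the main fit. Without any 1 of the remaining 8 arrays the count was 3. The particle, the control liquid and the set of arrays change together here and cannot be told apart.

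**Figure D4:**
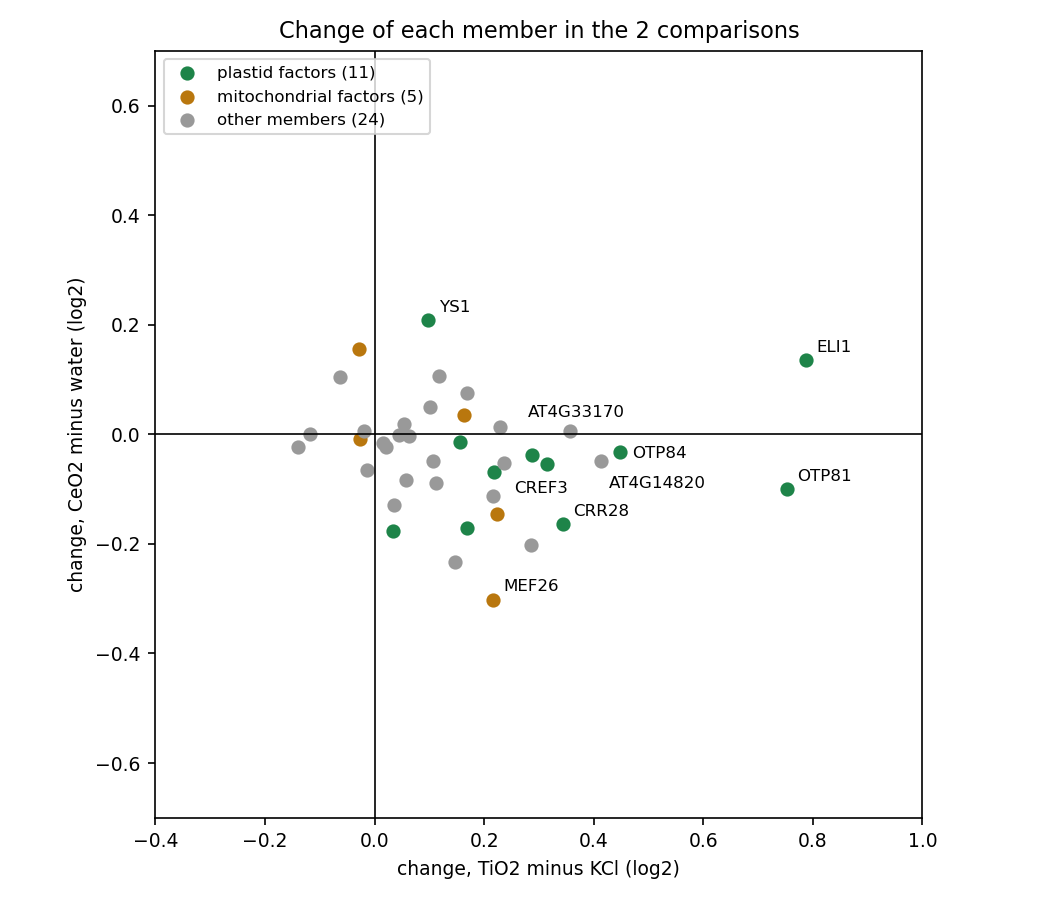
Difference in CeO2 against water (log2, vertical axis) plotted against the difference in TiO2 against KCl (log2, horizontal axis) for the 40 measured members, coloured by organelle. OTP81 and ELI1 lie far to the right at 0.75 and 0.79 while their CeO2 values are −0.10 and 0.14.

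Other genes of organelle RNA metabolism were only thinly covered. Of 21 listed cofactors of editing 4 were measured (MORF5, ORRM2, ORRM6 and DYW2), and 0 were called in either particle. Of 14 E-class PPR editing factors, which lack the DYW domain of their own, 3 were measured. CRR21, the E-class factor of an ndhD site, measured 5.50, 4.98 and 5.51 in KCl and 5.76, 5.96 and 5.69 in TiO2, without overlap, and rose by 0.47 ± 0.13 (adjusted p = 0.0306). CRR21 was past the threshold in 8 of 12 alternatives, and not without KCl replicate 2, TiO2 replicate 1 or TiO2 replicate 2, nor with the compared arrays alone. It was the 1 E-class member called in TiO2, and 0 were called in CeO2.

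Of 23 listed P-class PPR and other RNA processing genes 4 were measured, and 1 rose in TiO2. PPR4, whose maize counterpart is needed for trans-splicing of plastid rps12, measured 7.28, 7.06 and 7.24 in KCl and 7.73, 7.85 and 7.96 in TiO2, and rose by 0.65 ± 0.11 (adjusted p = 0.000698). In CeO2 it measured 7.05, 7.44 and 7.18 against 7.58, 7.64 and 7.57 in water, a difference of −0.37 (adjusted p = 0.0964), and the effect of CeO2 less that of TiO2 came to −1.02 (0.000383). All 3 TiO2 arrays lay above the KCl arrays and all 3 CeO2 arrays below the water arrays. PPR4 was past the threshold for TiO2 in all 12 alternatives and for the difference between the particles in all 17, and in CeO2 it was called without CeO2 replicate 2. Of 22 genes of organelle transcription 1 was measured, RPOTMP, at 0.12 in TiO2 (adjusted p = 0.56).

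Of 16 listed plastid transcripts that carry editing sites, 15 were measured, and ndhB, whose probe set is shared by both copies of the gene, was not used. In TiO2 0 of them rose and 1 fell, with a median difference of 0.05, and both values changed with the arrays left out. KCl replicate 3 was the lowest of the KCl arrays in 13 of the 15 transcripts. The median level over the 15 was 9.59, 9.36 and 8.54 on the KCl arrays. It was 9.19, 9.40 and 8.39 on the TiO2 arrays, so replicate 3 was the lowest in both groups. In accD, for a subunit of the plastid acetyl-CoA carboxylase, the KCl arrays measured 7.99, 7.25 and 5.57 and the TiO2 arrays 6.97, 6.82 and 6.54, so the TiO2 arrays lay between the KCl arrays. Without KCl replicate 3 the median was −0.23, and 5 transcripts were called (accD, atpF, petL, psbE and psbF, named after their values were seen). Without KCl replicate 1 the median was 0.36 and 0 were called, and without KCl replicate 2 it was 0.10 and 0 were called. No direction of this list in TiO2 can therefore be given.

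The transcript that fell with all arrays was petL, a small subunit of the cytochrome b6f complex, with 9.59, 9.36 and 8.54 in KCl and 8.23, 8.49 and 8.17 in TiO2 (log2 −0.87 ± 0.21, adjusted p = 0.0157). Its groups did not overlap, and it was past the threshold in 8 of 12 alternatives, but not without KCl replicate 1, KCl replicate 2 or TiO2 replicate 3, nor with the compared arrays alone. The transcript of rpoA, a subunit of the plastid RNA polymerase, had a difference of 0.38 (adjusted p = 0.0517), and it was called under several alternatives, among them the second quantile normalization. In CeO2 0 of the 15 were called, also without CeO2 replicate 3, and the median was −0.17.

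Markers of tissues moved in part with the groups. RCA, the activase of Rubisco and the 1 of 10 listed green tissue markers measured, had a mean of 13.6 and differences of 0.03 in TiO2 and −0.00 in CeO2. Of 10 root markers 3 were measured (EXPA7, EXPA18 and PRX44), with means of 8.22, 8.31 and 10.9. PRX44 fell by 0.44 in TiO2 (adjusted p = 0.0267). EXPA7 and EXPA18 went the other way in TiO2, at 0.34 (adjusted p = 0.129) and 0.07 (0.823), and were not called. Without TiO2 replicate 1 EXPA7 was called and PRX44 was not. In CeO2 all 3 rose, EXPA7 by 0.96, EXPA18 by 1.44 and PRX44 by 1.26. PAP85, the 1 of 8 seed markers measured, fell by 1.38 in TiO2 (adjusted p = 0.0042) and had a difference of −0.43 in CeO2 (0.74). PRX44, the brightest, gave most of the summed signal of the 3 root markers. The log2 of that sum ranged from 11.3 to 11.5 in KCl and 11.1 to 11.3 in TiO2. It ranged from 10.4 to 10.9 in water and 11.8 to 12.1 in CeO2. PAP85 ranged from 5.79 to 7.10 in KCl, 4.87 to 5.60 in TiO2, 7.47 to 8.26 in water and 7.16 to 7.70 in CeO2, and RCA lay between 13.5 and 13.8 on all arrays. No measured marker lay near the lowest values of the arrays. None of 7 flower and pollen markers was measured. PRX44 in TiO2 was past the threshold in 9 of 12 alternatives, and not without KCl replicate 2, TiO2 replicate 1 or TiO2 replicate 3. Without KCl replicate 3 in TiO2, or CeO2 replicate 3 in CeO2, the same genes were called in the cofactor, E-class, P-class, transcription and marker lists as with all arrays. The part of these markers in the differences of the DYW genes was not tested.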

How the data were processed

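Total RNA of 12-day-old germinants was hybridised to 12 Affymetrix arrays, 3 for each of the 4 groups. Each deposited value is the log2 signal of a probe set, computed by the authors with RMA (robust multi-array average) according to the submitters' processing notes. Its version, the probe definitions and whether all arrays were normalized together are not given in the sources used here. The number of arrays limits the precision, and the median standard error of a member's difference was 0.10.

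Of the 22746 probe sets the supplied probe annotation pairs 13513 with 1 gene, 503 with several and 8730 with none, and a RefSeq gene table gave symbols. All probe sets entered limma 3.58.1 (R 4.3.3) with 1 mean for each group over the 12 arrays and empirical Bayes moderation (8 residual and 7.63 prior degrees of freedom). Two-sided p-values were corrected with the Benjamini-Hochberg procedure across every probe set and called under 0.05. Differences are TiO2 minus KCl, CeO2 minus water, and the CeO2 effect minus the TiO2 effect. Groups do not overlap where every array of one lies above every array of the other. The fit was tested on simulated data with independent noise at each probe set's own spread. Of changes of 0.3 it found 8 of 68 in TiO2 and 3 of 69 in CeO2, and of changes of 0.5 it found 34 of 66 and 29 of 66. Of changes of 1 it found 65 of 66 and 64 of 65. Among 22546 unchanged probe sets 3 were called in TiO2 and 4 in CeO2. Changes of 0.3 thus mostly went uncalled there, and an uncalled difference of that size is not shown to be absent. The simulation changed far fewer probe sets than were called in the data (2407 in TiO2 and 550 in CeO2). The adjustment was therefore stricter in it, and the shares it found may not hold for the data.

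The members and gene lists were chosen with earlier results of these data known, so counts over them are no independent evidence. Named members are those called in a particle comparison, the 3 most changed in each direction of each comparison, the 3 brightest and 3 dimmest, and those with a usual name. From other lists, up to 3 called genes a comparison were named. Alternatives were a second quantile normalization, centring on array medians, leaving out the dimmest 30% of probe sets, an intensity trend with a robust prior, a replicate block, the compared arrays alone, and each array left out. No member had several probe sets, so averaging them could not be tried.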

Additional observations from a re-analysis of the deposited data

Results flagged for a closer look

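For 5 members the CeO2 effect against water and the TiO2 effect against KCl differed by limma's test of the difference itself. Taken as CeO2 effect less TiO2 effect, the difference was −0.85 for OTP81, −0.65 for ELI1, −0.52 for MEF26, −0.51 for CRR28 and −0.48 for OTP84 (log2). OTP81 and ELI1 kept the call in all 17 alternatives and OTP84 in 13 of 17, but MEF26 in only 5 of 16 and CRR28 in only 3 of 17. OTP81, ELI1, CRR28 and OTP84 are plastid editing factors with a called rise in TiO2, and MEF26 is a mitochondrial factor called in neither particle alone. For OTP81 and ELI1 the TiO2 effects were 0.75 and 0.79 and the CeO2 effects −0.10 and 0.14. Particle, control liquid and set of arrays cannot be told apart in these differences.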

How the results depend on the processing

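In TiO2 against KCl 7 members were called, and between 5 and 7 under the second quantile normalization, array centring, the dimmest 30% left out and the intensity trend with a robust prior. With only the compared arrays the count was 3 (1432 probe sets called in all, against 2407), and with 1 array left out it was 3 to 6. The compared arrays alone gave more called probe sets in CeO2 against water, 606 against 550. Why the 2 comparisons moved in opposite directions was not tested. Without the dimmest 30%, which leaves 20 members, the median difference became 0.22 from 0.13 in TiO2 and −0.34 from −0.17 for the CeO2 effect minus the TiO2 effect. In CeO2 0 members were called throughout. The 5 called differences between the particles became 4 under each of the first 4 settings and 2 to 5 with 1 array left out. Where the count stayed at 5, AT4G14820 was called in place of MEF26.

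Some uncalled differences near 0 changed sign with 1 array left out: AT3G02010 in TiO2 ranged from −0.12 to 0.0195, and in CeO2 AT4G33170 ranged from −0.0335 to 0.0632, CREF3 from −0.11 to 0.0161 and OTP84 from −0.0722 to 0.00753. The deviations of same-numbered arrays correlated at 0.114, 0.0464 and 0.274 for TiO2 with KCl, and at 0.302, 0.00223 and 0.0569 for CeO2 with water. Those of differently numbered arrays ranged from −0.288 to 0.221 and from −0.229 to 0.17. Not every array correlated best with its own number, and whether the numbers pair the samples was not settled. The replicate block raised the called probe sets from 2407 to 2886 in TiO2 and from 550 to 647 in CeO2. With the replicate block 6 members were called in TiO2, 0 in CeO2 and 3 for the difference between the particles. Of the 40 members 17 have a mean level under 4, where 0 were called. Of all probe sets with a mean under 5 only 1.7% rose in TiO2. Running the other gene lists under these settings was chosen after seeing the data, and the median TiO2 difference of the edited plastid transcripts then ranged from −0.23 to 0.36 with 1 array left out.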
